A study of Mus musculus with 26 samples.

Results

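Late-replicating DNA was examined in 7632 genomic bins of 40 kb that had been copied in only a few of the S-phase blastomeres of a mouse 8-cell embryo. The bins were chosen by their measured replication states. A bin was a member when it had a state in all 6 profiled cells of embryo 2 and was called replicated in exactly 1, 2 or 3 of them. Members made up 15.2% of the 50126 bins with a state in all 6 cells, out of 51976 bins in the table, and covered 305 Mb. Because these states chose the members, counts of replicated cells are given below as a description, and only RNA, gene content and DNA sequence are measures that the choice did not use.

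The data came from scRR-seq, which reads the DNA copy number state and the total RNA of the same single cell. Embryos were made by in vitro fertilization with C57BL/6 oocytes and sperm, cultured without any treatment and taken apart by hand at the 8-cell stage. The labels describe 13 cells of 2 embryos, and tables with labelled columns hold 9 of them, 6 from embryo 2 (cells 2, 3, 5, 6, 7 and 8) and 3 from embryo 1 (cells 1, 6 and 7). Cells were prepared with either of 2 versions of the protocol, scRR3 for cells 2 and 3 of embryo 2 and cell 1 of embryo 1, and scRR1, with a smaller lysis volume, for the other cells. All 6 cells used to choose the bins came from 1 embryo, which is 1 biological replicate, so no test between conditions was possible and no p-value is given.

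During S phase a cell copies its genome in a set order, with megabase-scale domains that fire early and others that wait until late S phase. Late domains are usually poor in genes, rich in AT base pairs and attached to the nuclear lamina. A cell in mid to late S phase has finished its early domains and is working inward into the late ones, so a bin copied in few such cells lies near the end of the program.

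The 6 cells were all past the middle of S phase, with replication scores (replicated bins as a percent of bins with a state) from 62.4% in cell 6 to 80.5% in cell 7. Among 8 genes that check the label, Pou5f1, which encodes the pluripotency factor Oct4, was listed at 117 to 231 TPM (the transcript share of a cell, scaled to a fixed total) in the 6 cells. Dppa3, a maternal factor that regulates DNA methylation in the early embryo, was listed at 1138 to 1836 TPM, and Klf5, Zfp42, Nanog and Klf17 were above 1 TPM in all 6 cells. The trophectoderm factor Cdx2 was above 1 TPM in only 1 of the cells and Obox3, a homeobox gene of the early embryo, in 0 of them. These levels did not go against the label of a cleavage-stage embryo.

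The bins themselves looked like late-replicating sequence. The stretches printed here are the central 200 bases of the bin nearest the median GC content of its class, from the GRCm38.p6 (mm10) genome, forward strand, in lower case with each CpG in capitals. They are shown to let the AT-rich makeup of members be read beside bins copied in none and in all of the cells.
chr11:37339901-37340100, replicated in none of the 6 cells: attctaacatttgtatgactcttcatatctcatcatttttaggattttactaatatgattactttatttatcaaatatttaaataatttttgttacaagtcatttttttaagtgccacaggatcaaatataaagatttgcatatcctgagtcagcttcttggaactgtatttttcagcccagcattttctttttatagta
chr16:39539901-39540100, replicated in 1 cell: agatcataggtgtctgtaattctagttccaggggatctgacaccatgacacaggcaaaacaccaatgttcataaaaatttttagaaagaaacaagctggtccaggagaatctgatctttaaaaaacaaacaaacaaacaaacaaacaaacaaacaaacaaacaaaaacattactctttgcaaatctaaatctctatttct
chr3:18179901-18180100, replicated in 2 cells: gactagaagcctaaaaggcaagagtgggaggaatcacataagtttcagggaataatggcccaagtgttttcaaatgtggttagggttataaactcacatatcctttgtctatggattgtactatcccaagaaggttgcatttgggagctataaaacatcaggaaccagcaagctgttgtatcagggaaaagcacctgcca
chr3:21219901-21220100, replicated in 3 cells: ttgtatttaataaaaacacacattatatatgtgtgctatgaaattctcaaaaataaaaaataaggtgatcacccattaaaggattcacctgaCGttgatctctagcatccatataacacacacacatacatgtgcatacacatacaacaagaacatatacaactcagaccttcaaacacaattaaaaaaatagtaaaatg
chr3:34219901-34220100, replicated in all 6 cells: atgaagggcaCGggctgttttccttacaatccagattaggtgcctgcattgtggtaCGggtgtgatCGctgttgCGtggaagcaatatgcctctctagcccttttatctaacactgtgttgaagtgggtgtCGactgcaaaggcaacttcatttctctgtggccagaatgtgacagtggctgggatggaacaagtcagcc
chr12:119219901-119220100, end of a late domain: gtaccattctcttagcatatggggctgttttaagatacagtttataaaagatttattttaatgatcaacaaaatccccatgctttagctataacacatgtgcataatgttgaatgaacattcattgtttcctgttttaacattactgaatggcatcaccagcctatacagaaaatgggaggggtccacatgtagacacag
The first stretch, from a bin replicated in none of the 6 cells, lies between genes with Tenm2 the nearest protein-coding gene. The next, from a bin replicated in cell 8 alone, is intergenic with Lsamp the nearest coding gene. The bin replicated in 2 cells (cells 3 and 8) gave a stretch in an intron of Cyp7b1, which encodes a steroid and bile acid hydroxylase. The bin replicated in 3 cells (cells 2, 7 and 8) gave an intergenic stretch, and the late domain end, replicated in cell 2 alone, one in an intron of the integrin gene Itgb8. The bin replicated in all 6 cells gave a stretch in an intron of Sox2ot, a long noncoding RNA gene that spans Sox2. The stretches from members held 0 or 1 CpG, against 5 in the stretch from the bin replicated in all 6 cells.

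Over whole bins GC content rose with the number of cells that had copied a bin. The single stretches, at 42% GC for 2 cells and 29.5% for 3 cells, did not keep this order. Median GC content was 37.5% in bins replicated in none of the cells, 37.8%, 38.1% and 38.6% in members replicated in 1, 2 and 3 cells, and 43.6% in bins replicated in all 6. Members as a whole lay 0.605 percentage points above never-replicated bins, and the difference from bins replicated in all 6 cells was -5.47 points. The first of these was 0.913 to 1.01 points when members were taken again without cell 2, 3, 5, 7 or 8. Their quartiles, 36.9% and 39.7%, overlapped those of never-replicated bins (36.5% and 38.6%) and not those of bins replicated in all 6 (41.1% and 46.4%). Repeats marked in the reference covered a median of 37% of a member bin, against 28.4% of a bin replicated in all 6 cells. Members were therefore close to never-replicated DNA in base composition, and GC rose by small steps with the number of cells that had copied a bin.

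The number of bins fell slowly across the members' classes and rose steeply outside them. The classes held 2708 bins replicated in 1 cell, 2509 in 2 cells and 2415 in 3 cells. Just outside the limits lay 4027 bins replicated in none and 3384 replicated in 4 cells, with 10665 in 5 cells and 24418 in all 6. At the upper limit, median GC went from 38.6% with 3 cells to 39.8% with 4, and at the lower limit from 37.8% with 1 cell to 37.5% with none.

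Each of the 6 cells had copied some of the members, and the cells did not rank as their scores did. Cell 7, with the highest score, had replicated 3457 members (45.3%), and cell 8, next by score at 78.7%, 2959 (38.8%). Cell 3 came next with 2486 (32.6%), although its score of 74.2% was above that of cell 6 alone. Cell 2 had replicated 2309 members (30.3%) at a score of 77.8%, and cell 5 had 2078 (27.2%) at 76.9%. Cell 6, the least advanced, still had 1682 (22%). Of bins replicated in a single cell, 728 belonged to cell 7, 558 to cell 8, 479 to cell 3, 362 to cell 2, 353 to cell 6 and 228 to cell 5. Cell 3 thus reached more late bins on its own than cells 2 and 5, which had copied more of the genome.

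**Figure D1:**
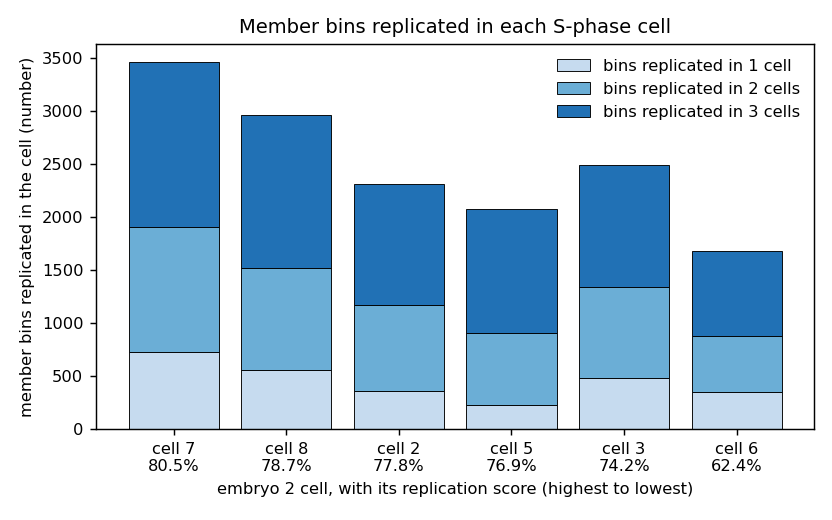
Member bins called replicated in each of the 6 embryo 2 cells (bars, number of bins), split by the number of cells in which the bin was replicated and ordered by the replication score written under each cell. Cell 7 has the tallest bar with 3457 bins and cell 6 the shortest with 1682, and cell 3, with a score above that of cell 6 alone, stands above cells 2 and 5.

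If every cell copied the genome in 1 fixed order, a bin replicated in k cells would be replicated in the k cells with the highest scores. That held for 1257 members, or 16.5%. It held for 26.9% of bins replicated in 1 cell, 12.3% of those in 2 cells and 9.11% of those in 3. These classes have 6, 15 and 20 possible sets of cells. Outside the members it held for 26.9% of bins replicated in 4 cells (15 possible sets) and 63.4% of those in 5 (6 possible sets). With more possible sets an even split puts fewer bins in each, so equal shares do not mean equal order across classes. All 41 possible sets of 1 to 3 cells occurred. The largest sets of 2 and of 3 cells were cells 7 and 8 with 309 bins and cells 5, 7 and 8 with 258 bins. They held 12.3% and 10.7% of their classes. Cell 6 had copied 1182 members that cell 7 had not, 70.3% of the 1682 members it had copied. The rule allows a member at most 3 replicated cells, so much of this share was set in advance. The 353 bins replicated in cell 6 alone, for instance, lacked cell 7 by definition. The share that followed the order rose to 25.9%, 27.2% and 27.4% without cells 5, 8 and 2, where members were taken again as 1 to 3 of the other 5 cells. Whether bins off this order came from differences between cells or from errors in single state calls was not tested.

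To place members within late domains, a late domain was taken as an unbroken run of bins replicated in at most 3 cells, and its end as the last bin beside one replicated in 4 or more. A bin missing or without a state also broke a run, so some domains may be parts of longer ones. There were 582 such domains, with a median length of 480 kb and the longest 7600 kb, and 574 of them held a member. Members took up the whole of 360 domains that had no never-replicated bin (median 280 kb), which held 43.4% of members. The other members flanked or interrupted never-replicated cores, in 222 domains with such a bin (median 1120 kb).

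Members lay toward the edges and never-replicated bins toward the middle. The median distance from the nearer end was 200 kb for members and 680 kb for never-replicated bins, leaving out 398 members and 422 never-replicated bins of domains with no such end. In the 5 bins nearest an end, at 0 to 160 kb from it, lay 44.6% of members and 4.52% of never-replicated bins, and 888 members (11.6%) but only 2 never-replicated bins were themselves end bins. The distance followed the class, with medians of 60 kb for bins replicated in 3 cells, 200 kb for 2 cells and 440 kb for 1 cell. Still, 28.7% of members lay more than 400 kb from an end beside earlier DNA. In a domain with only 1 such end the distance is to that end, even where a break in the data lay nearer. With late domains taken as bins replicated in at most 4 cells, 2.2% of members were end bins. Ends are defined by the same states that chose the members, so this order is a description of how states changed along the chromosome.

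In the 295 domain ends of late domains of 800 kb or longer, the change inward could be followed bin by bin. At the end bin 74.2% were replicated in 3 cells, 23.1% in 2 cells and 2.37% in 1 cell. At 200 kb the shares were 17.6%, 28.1% and 29.5%, with 24.7% in none, and at 400 kb 45.3% were in none. Cell 7 had replicated 55.3% of the end bins and 24.3% of bins at 400 kb, and cell 8 went from 48.8% to 18.5%. Cell 6 went from 32.2% to 11.6%. Cells 2, 3 and 5 fell from between 41.7% and 47.1% to between 9.78% and 13.8%. Cell 6 lay below cells 2, 3 and 5 out to 160 kb, and from 200 kb on the order of these 4 cells varied with the distance.

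**Figure D2:**
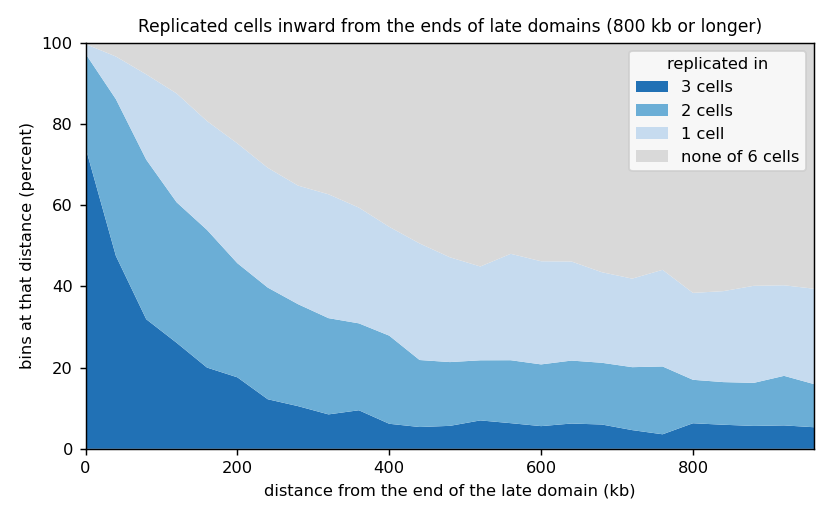
Share of bins (percent, vertical axis) replicated in 3, 2, 1 or none of the 6 cells against the distance in kb from the end of late domains of 800 kb or longer, with 295 ends at 0 kb. Bins replicated in 3 cells fall from 74.2% at the end to 17.6% at 200 kb, and bins replicated in none rise to 45.3% at 400 kb.

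Unbroken runs of members numbered 819, with a median of 280 kb. A never-replicated core on one side and earlier DNA on the other bounded 297 runs, and in 252 of these (84.8%) the number of replicated cells never rose on the way from the edge to the core. Runs of 1 bin are among the 252 by definition, and the flanks were set by the same states, so part of this share was fixed in advance. A further 266 runs lay between earlier DNA on both sides. The 105 runs with never-replicated DNA on both sides, islands inside late domains, held 13.7% of members. The remaining runs touched a bin without a state or the end of the table, and 2.16% of members lay next to such a place, against 2.33% of all bins.

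The replicated calls in members mostly lay in stretches joined to earlier replicated DNA. Of 14971 replicated calls summed over the 6 cells, 11802 (78.8%) lay in a replicated stretch of that cell that reached a bin replicated in 4 or more cells. The other 21.2% were not joined to such a bin. Among them, 11 to 67 calls per cell lay in stretches that ended at a missing bin, where a join could not be seen. Being joined does not show in which direction the DNA was copied. In cells 2, 3, 5, 7 and 8 the separate share was between 18.1% and 21.5%, and in cell 6 it was 31.8%. Of the bins that cell 6 alone had replicated, 33.4% were joined to earlier DNA, against 53.9% to 65.2% in the other cells. Cell 6 also had 1264 bins with no state, against 107 to 181 in the others, and replicated stretches with a median of 680 kb against 1220 to 1400 kb, and the part of these in its separate calls was not tested. In all, 1780 members (23.3%) had no joined call in any cell.

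The longest runs showed how cells differed at single places. The longest, chr18:25680001-28360000 (2680 kb), around the RNA-binding protein gene Celf4, was replicated in cell 7 in all of its 67 bins, in cell 3 in 38, in cell 2 in 19 and in cell 6 in 10. The run chr3:43960001-46360000 (2400 kb) holds Pcdh10, a protocadherin of the nervous system, and was replicated in cell 7 in 48 of 60 bins and in cell 8 in 34. The run chr4:65480001-67560000 (2080 kb) holds Tlr4, the receptor for bacterial lipopolysaccharide, Astn2 and Trim32, and 48 of its 52 bins were replicated in cell 8. This run is an island with never-replicated DNA on both sides, and no bin of it was replicated in cells 2, 3, 6 or 7.

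The leading cell varied among the other long runs. In chr4:80480001-82320000, which holds Nfib, Mpdz, Lurap1l and the pigment enzyme gene Tyrp1, cell 8 had 30 and cell 5 had 24 of 46 bins. In chr3:81880001-83680000 with 14 coding genes, among them the fibrinogen genes Fga, Fgb and Fgg, cell 7 had 42, cell 5 had 38 and cell 2 had 21 of 45 bins. In chr1:27680001-29440000 cell 7 had all 44 bins and cell 3 and cell 6 had 0. In chr13:86560001-88320000, which holds no coding gene, cell 5 had 40 and cell 8 had 36 of 44 bins. None of the long runs described here was replicated throughout by more than 1 cell.

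Bins replicated in a single cell also came in runs. The longest of them was chr4:65760001-67560000 in cell 8, at 1800 kb with Astn2 and Tlr4. Cell 7 had 1000 kb of its own at chr1:27840001-28840000 and cell 3 had 800 kb at chr18:28400001-29200000. Cell 6 had 760 kb at chr16:79800001-80560000, with never-replicated bins on both sides and no coding gene. Cell 5 had 640 kb at chr4:80480001-81120000 with Tyrp1 and Lurap1l. Cell 2 had 600 kb at chr5:87360001-87960000, which holds the casein genes Csn1s1, Csn1s2a, Csn1s2b, Csn2 and Csn3 of milk and sulfotransferase and glucuronosyltransferase genes of steroid and drug metabolism. The median run in a single cell was only 120 or 160 kb, so these were the far end of the range.

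Members were spread over all 17 chromosomes of the table but not evenly. Chromosomes 6, 10 and X were not analysed here. Chromosome 3 had the highest share, with 23.8% of its bins and 859 members (11.3% of all), followed by chromosome 4 with 20.6%, chromosome 16 with 19.9% and chromosome 18 with 18.8%. The lowest shares were 5.58% on chromosome 19, 8.91% on chromosome 17 and 10.2% on chromosome 11. Chromosome 3 stayed the one with most members without any 1 of the cells. It also had the lowest share of bins replicated in all 6 cells, at 31.2%, against 40.6% to 68.5% on the other chromosomes.

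The cells' shares of members differed between chromosomes. Cell 2 had replicated 79.5% of the 78 members of chromosome 19 but 13.3% of those of chromosome 16. Cell 6 had replicated 6.63% of the 724 members of chromosome 4 and 40.6% of the 470 of chromosome 14, where cell 7 had 21.7%. Cell 3 had 9.31% of the 290 members of chromosome 11 and 51.5% of those of chromosome 18. Members of 1 chromosome lie in shared runs, so these shares rest on far fewer independent places than bins. The states are copy number calls, so a gain or loss of a chromosome in 1 cell would also be read as a state. The part of such changes in the shares by chromosome was not tested.

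**Figure D3:**
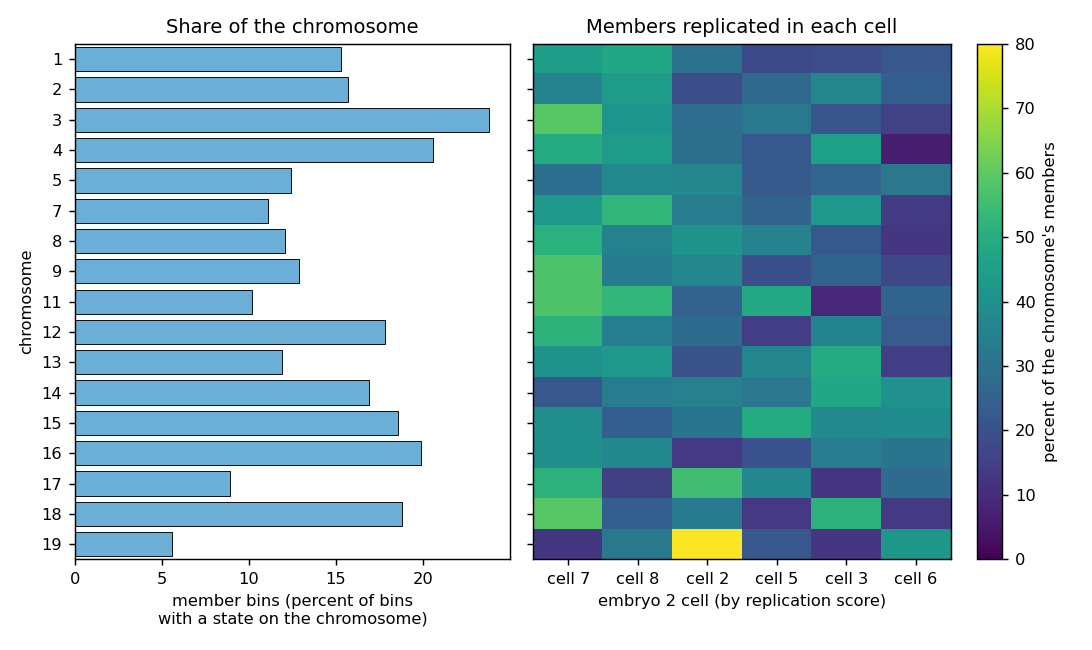
Left, member bins as a percent of the bins with a state on each chromosome. Right, percent of a chromosome's members replicated in each of the 6 embryo 2 cells (colour). Chromosome 3 has the longest bar at 23.8%, and the brightest cell of the map is cell 2 on chromosome 19 at 79.5%.

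The 3 cells of embryo 1 gave states that the choice did not use. Cell 7 had 0 of 7629 members replicated. Cell 6 had 0.511% of them replicated against 0.81% of all bins. Cell 1 had 3.03% against 3.38%, and without chromosome 7, which held most of its replicated bins, 0.701% against 0.697%. By these states embryo 1 cells were not in S phase, and they say nothing about the order in which members were copied.

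Members held few genes. Protein-coding genes started at 2.4 per Mb in members, against 1.24 per Mb in never-replicated bins and 12.5 per Mb in bins replicated in all 6 cells, and 92.5% of member bins held no coding start. Over the classes the density was 2.31, 2.05 and 2.87 per Mb for bins replicated in 1, 2 and 3 cells and 4.31 per Mb for 4 cells. The 733 coding genes that started in members were 4.17% of the 17583 that started in a bin with a state in all 6 cells, while members were 15.2% of those bins. Of all gene starts in members 24.1% were of coding genes, against 46% in bins replicated in all 6 cells, and 1055 of 3043 were of pseudogenes. Coding genes that started in members had a median length of 11.4 kb, shorter than the 19.5 kb of those in never-replicated bins.

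By family, the share of gene starts that lay in members ranged widely around the 4.17% of all coding genes. Olfactory receptors, which detect odours and are arrayed in clusters, had 191 of 995 starts in members (19.2%), in 8 runs. The prolactin family, pituitary and placental hormones, had 17 of 23 (73.9%), all in 1 run on chromosome 13. Serpins, protease inhibitors, had 15 of 57 (26.3%) in 5 runs, among them the alpha-1-antitrypsin genes Serpina1a to Serpina1e. Vomeronasal receptors had 11 of 185 (5.95%), near the share of all genes. Genes of a cluster share their bins, so the number of runs and not of genes says how often a family met a member.

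Members also held genes of neuronal surfaces and synapses. Cadherins had 5 of 21, at 5 separate runs (Cdh2, Cdh9, Cdh10, Cdh12 and Cdh19). Protocadherins outside the clusters had 3 of 9 (Pcdh9, Pcdh10 and Pcdh17), and GABA-A receptor subunits had 4 of 15 in 3 runs (Gabra4, Gabra5, Gabrb1 and Gabrg3). Glutamate receptors had 2 of 18 (Gria1 and Grm5), Eph receptors 2 of 10 (Epha3 and Epha7), semaphorins 2 of 19 (Sema3d and Sema6d), synaptic leucine-rich proteins 2 of 11 (Lrfn5 and Slitrk5) and contactins 1 of 7 (Cntn5). Potassium channels, with 4 of 85 (4.71%), were near the share of all genes. Such genes were not particular to members. Never-replicated bins held the starts of 14.3% of the cadherins, 22.2% of the protocadherins outside the clusters and 33.3% of the GABA-A receptor subunits. They held 0 of the 10 Eph receptors, beside 1.14% of all coding genes. These lists are short, so each share rests on a handful of genes.

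Other families had few or no starts in members, beside 4.17% of all coding genes. At so low a share a short list can hold 0 by default, so its 0 says little about the family. Zinc finger genes had 2 of 331 starts in members (0.604%) and cytochrome P450 genes 2 of 93 (2.15%). No member held the start of any of the 26 Hox genes, 87 ribosomal protein genes, 46 histone genes of the Hist clusters, 53 keratins, 53 clustered protocadherins, 42 beta-defensins or 8 Prame-like genes. The 26 Hox genes, which pattern the body axis, were in bins replicated in all 6 cells, and so were 95.7% of the histone genes. The Hoxa cluster, on chromosome 6, was not analysed here.

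Promoters of member genes were poor in CpG. In windows from 250 bases before to 50 after the annotated start, 16.5% of the 595 coding genes that lay wholly in members had 10 or more CpG, against 58.7% of genes wholly in bins replicated in all 6 cells. The share was 25.4% without olfactory and vomeronasal receptors and the prolactin family. Among member genes with TPM above 1 in at least 3 of the 6 cells it was 56.8% of 37, and among the others 13.8% of 558. Upstream sequences of 4 member genes with RNA are printed next, to show that CpG content differed among such genes. They are the 250 bases before the RefSeq start on GRCm38.p6, 5′ to 3′ on the gene's strand, with each CpG in capitals, for the gene with the highest RNA level in each class among those matched in the RefSeq table used here, and for a prolactin family gene. Of the 21 named genes, 13 were matched there.
Ccdc50, chr16:27388706-27388955, forward strand: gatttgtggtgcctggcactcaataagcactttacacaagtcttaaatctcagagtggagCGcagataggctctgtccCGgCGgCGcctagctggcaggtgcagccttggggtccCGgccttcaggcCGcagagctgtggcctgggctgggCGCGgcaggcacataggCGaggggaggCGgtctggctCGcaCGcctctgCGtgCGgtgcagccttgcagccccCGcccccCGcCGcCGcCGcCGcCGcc
Fmn2, chr1:174501575-174501824, forward strand: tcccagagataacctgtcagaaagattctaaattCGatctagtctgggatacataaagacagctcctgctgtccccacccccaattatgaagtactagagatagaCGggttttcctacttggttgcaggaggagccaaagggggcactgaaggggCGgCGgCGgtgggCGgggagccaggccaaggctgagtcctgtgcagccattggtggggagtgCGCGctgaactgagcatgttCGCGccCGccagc
Pdcd10, chr3:75556853-75557102, reverse strand: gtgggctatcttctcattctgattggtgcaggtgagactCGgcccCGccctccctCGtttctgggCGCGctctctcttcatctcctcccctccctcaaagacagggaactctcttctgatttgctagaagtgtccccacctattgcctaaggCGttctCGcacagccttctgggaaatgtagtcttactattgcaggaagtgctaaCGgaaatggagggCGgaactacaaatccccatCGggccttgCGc
Prl8a1, chr13:27582172-27582421, reverse strand: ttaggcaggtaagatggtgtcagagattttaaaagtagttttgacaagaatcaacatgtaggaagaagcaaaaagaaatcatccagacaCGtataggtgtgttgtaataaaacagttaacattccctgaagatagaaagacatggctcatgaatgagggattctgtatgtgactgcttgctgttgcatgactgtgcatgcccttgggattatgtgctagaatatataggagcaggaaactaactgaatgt
The upstream sequences of Ccdc50, Fmn2 and Pdcd10 held 21, 11 and 11 CpG, and that of Prl8a1 held 1. Prl8a1 was nevertheless listed at 25.2 to 36.2 TPM in the 6 cells, so a CpG-rich start was not shared by all member genes with RNA.

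Member genes were mostly silent. RNA was not used in choosing the bins, and the 595 coding genes wholly in members were compared with genes wholly in other classes. Per cell, 6.22 ± 0.672% of member genes (SD, n = 6 cells) had TPM above 1, between 5.38% and 7.06%. The share was 3.64 ± 1.53% in never-replicated bins, 41.5 ± 1.93% in bins replicated in 4 or 5 cells and 50.8 ± 2.69% in bins replicated in all 6. No cell's value for members reached that of any cell in the last 2 classes, while the ranges of members and never-replicated genes (1.82% to 6.06%) overlapped. Above 1 TPM in at least 3 of the 6 cells were 37 member genes, or 6.22%, against 47.7% of all 16531 genes that lay wholly in 1 class. A further 518 member genes were above 1 TPM in 0 of the 6 cells, and 425 (71.4%) were listed at 0 in all 9 cells of both embryos. That last share was 75.8% of genes in never-replicated bins, 32.5% with 4 or 5 cells and 22.3% with all 6.

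Values for members overlapped between the RNA protocols. Detected member genes were 6.05% and 6.55% in the scRR3 cells of embryo 2 and 5.38% to 7.06% in its scRR1 cells. Among genes of bins replicated in all 6 cells the shares were 51.9% and 54.8% with scRR3 and 47.5% to 52.3% with scRR1. The low share of detected member genes was thus present under both protocols.

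The gap was the same size in cells outside S phase. Mean log10(TPM + 1) of member genes minus that of genes replicated in all 6 cells was -0.592 ± 0.035 in embryo 2 (SD, n = 6) and -0.607 ± 0.0352 in embryo 1 (SD, n = 3), a difference within the spread between cells. Within embryo 2 it was -0.626 in the 2 scRR3 cells and -0.575 in the 4 scRR1 cells. In embryo 2 it was -1.03 with a pseudocount of 0.1 and -0.248 with 10 in place of 1. Against never-replicated genes it was 0.0236 ± 0.0141 in embryo 2 and 0.0189 ± 0.0103 in embryo 1, higher in all 9 cells but small. By class the detected share in embryo 2 was 5.18 ± 0.904%, 5.98 ± 1.11% and 7.56 ± 0.776% for genes replicated in 1, 2 and 3 cells. The ranges over cells overlapped for every pair of these 3 classes.

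**Figure D4:**
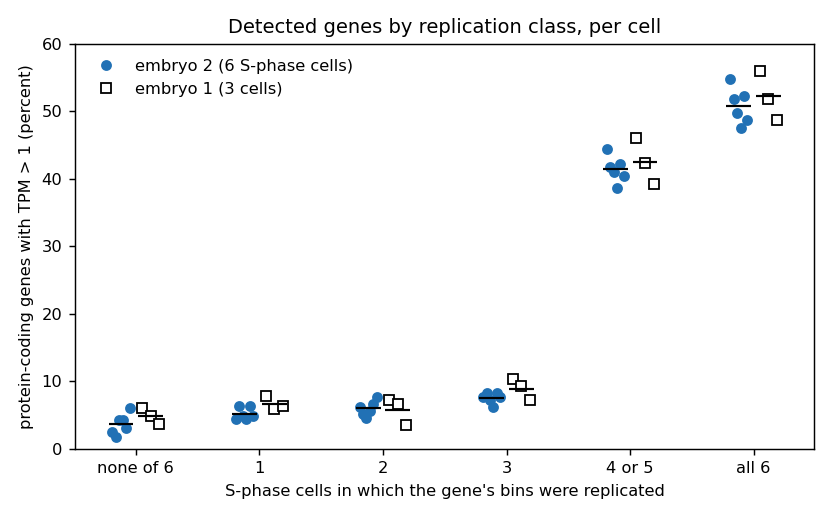
Percent of protein-coding genes with TPM above 1 in each cell, by the number of S-phase cells in which the bins of the gene were replicated, for embryo 2 (filled circles, 6 cells) and embryo 1 (open squares, 3 cells), with lines at the means. Genes of bins replicated in none, 1, 2 or 3 cells lie at or below 10.3%, and the 2 classes replicated in 4 or more cells lie far above in both embryos.

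A small set of member genes carried RNA. Of the 37 above 1 TPM in at least 3 cells, 15 were above it in all 6, and 11 member genes had a mean above 10 TPM. Among genes replicated in 3 cells, Pdcd10 (chr3:75516490-75556856), an adaptor of kinase signalling that is mutated in cavernous malformations, had a lowest, median and highest level of 19.9, 38.3 and 119 TPM. Its 2 bins were replicated in cells 5, 7 and 8, which had 118.91, 67.48 and 45.71 TPM, all above the 29.14, 19.88 and 30.83 TPM of cells 2, 3 and 6. Cells 2 and 3 were prepared with scRR3, and among the scRR1 cells the comparison rests on cell 6 alone. The embryo 1 cells, not in S phase by their states, had 31.72, 72.28 and 21.65 TPM. The splicing factor gene Plrg1 (chr3:83055522-83072355) had 34, 47.2 and 66.4 TPM, and its cells with and without replication overlapped. Prl8a1 (chr13:27573922-27582171) had 25.2, 32.1 and 36.2 TPM, a narrow range across cells with it replicated and unreplicated. Dmac1 (chr4:75277354-75278305), needed to assemble respiratory complex I, had 16.7, 25.3 and 31 TPM, and Etaa1 (chr11:17938756-17953875), an activator of the checkpoint kinase ATR at stalled forks, 13.8, 19.1 and 19.9 TPM. Etaa1 did not separate its replicated from its unreplicated cells, at means of 17.8 and 17.6 TPM.

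Among genes replicated in 2 cells the levels were lower. Srfbp1 (chr18:52465693-52491931), which binds serum response factor, had 7.53, 15.6 and 28.3 TPM, and its replicated cells 3 and 7 were the highest with 22.64 and 28.34 TPM. Fmn2 (chr1:174501825-174822729), an actin nucleator needed for spindle positioning in the oocyte, had 1.3, 7.71 and 28.1 TPM, and was low in cell 7, with all of its 9 bins replicated, at 2.43 TPM. The uncharacterised gene 5730480H06Rik (chr5:48327952-48414294) had 0, 8.5 and 19.3 TPM. Prl3b1 (chr13:27241847-27249683), placental lactogen II, had 0, 8.4 and 23.9 TPM against 0 to 0.92 TPM in embryo 1. Pou4f1 (chr14:104461676-104467999), a transcription factor of sensory neurons, had 0.41, 1.66 and 22.8 TPM, the highest in cell 3, and the other 5 cells were at or below 4.90 TPM. Levels of prolactin family genes are uncertain where reads fit several near-identical copies.

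Among genes replicated in 1 cell, 2 of the 5 named genes came from a single bin. Gm10800 (chr2:98666547-98667301) had 50.5, 337 and 537 TPM and its neighbour Gm10801 (chr2:98662237-98664083) had 4.34, 14.4 and 30.7 TPM. Both are predicted genes and share 1 bin replicated in cell 8 alone, and their levels are uncertain where reads fit several repeat copies. Bbx (chr16:50191844-50432390), an HMG-box DNA-binding protein gene, had 9.78, 16.1 and 37.5 TPM and was lowest in cell 5, where its 7 bins were replicated. Ccdc50 (chr16:27388869-27452218), an effector of epidermal growth factor signalling, had 6.06, 7.8 and 18.7 TPM, and Olfr1033 (chr2:86020633-86045171), an olfactory receptor gene, 4.65, 8.29 and 15.8 TPM. The replicated cell was the highest for Gm10800, at 537.13 TPM against 50.45 to 533.08 TPM in the others, and was not the highest for Bbx, Gm10801, Ccdc50 or Olfr1033. Gm10800 was lower in the scRR3 cells of embryo 2, at 105.74 and 50.45 TPM, than in its scRR1 cells, at 221.80 to 537.13 TPM, and the part of the protocol in this was not tested.

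**Figure D5:**
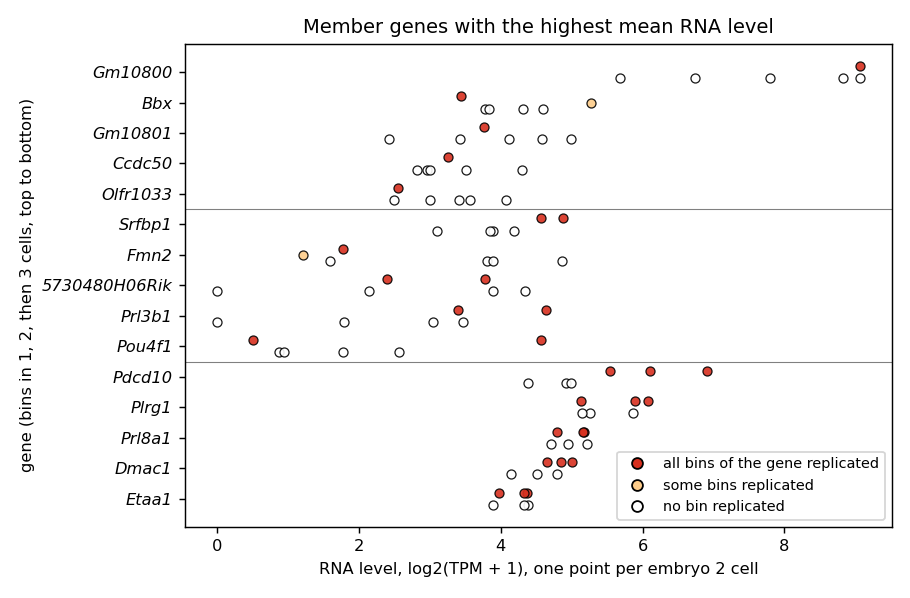
RNA level as log2(TPM + 1) of the 15 member genes with the highest mean TPM, 5 for each number of replicated cells, with 1 point per embryo 2 cell. Red points are cells with all bins of the gene replicated, orange points cells with some and open points cells with none. For Pdcd10 and Srfbp1 the red points lie above the open ones, and for Bbx and Olfr1033 they do not.

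The longest member genes were neural and mostly without RNA. Nell2 (chr15:95075230-95528559, 453 kb), a secreted guidance protein gene, Spock3 (chr8:62951009-63357103, 406 kb), a proteoglycan gene, Kcnt2 (chr1:140246158-140612067, 366 kb), an ion channel gene, and the netrin gene Ntng1 (chr3:109780040-110144011, 364 kb) were listed at 0 in all 9 cells. Plxdc2 (chr2:16356304-16755839, 399.5 kb), a transmembrane protein gene, reached 2.18 TPM in cell 3 and had a median of 0. States changed along most of them. All 13 bins of Nell2 were replicated in cells 3 and 7, with 5 of them in cell 5 and 1 in cell 6. All 11 bins of Spock3 were replicated in cell 7 with 2 in cell 5. Ntng1 was replicated throughout in cells 6 and 7, and Kcnt2 in cell 3 with 8 of its 10 bins in cell 7.

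Because members were copied in some cells and not in others, each gene could be set against itself. This used the 35 member genes with a mean above 1 TPM whose bins all had the same replicated cells. Log2(TPM + 1) was on average 0.564 higher in cells with the gene replicated than in cells without, with a median of 0.496, and 26 of the 35 genes were higher. The SD between cells of the mean over these genes was 0.243, which is not an error of the difference. Over the genes the difference had an SD of 0.794. The means were 0.446, 0.943 and 0.455 for 8, 8 and 19 genes replicated in 1, 2 and 3 cells. With each cell centred on its median over the same genes the difference was 0.194, with 21 of 35 genes higher. With each cell centred instead on the genes detected in all 6 cells it was 0.504, with 25 of 35 genes higher. It was 0.569 in the 4 scRR1 cells, with 23 of 33 genes higher, and 0.294 between the 2 scRR3 cells, with 9 of 15 higher. On other scales it was 0.87 with a pseudocount of 0.1 and 0.239 with 10, and over 529 genes without the limit on TPM it was 0.0388. Its size thus varied with the genes used to centre a cell, and gene copy number and differences between whole cells cannot be told apart with 6 cells.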

How the data were processed

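scRR-seq-RNA and scRR-seq-DNA were profiled from single blastomeres of 2 mouse 8-cell embryos, 3 cells with the scRR3 and 6 with the scRR1 version of the protocol by the study's sample list. The versions differ in lysis volume and in how the RNA is handled. The DNA file that the authors deposited gives each 40-kb bin of a cell a state score of 1 (replicated), -1 (unreplicated) or 0 (no data). Per their methods, reads were aligned to mm10 with bwa (version 0.7.17-r1188 in the submitters' processing notes), blacklisted regions were removed and states were called by the hidden Markov model of AneuFinder, which joins neighbouring bins. For the RNA, the authors deposited TPM values of 55487 genes from RSEM in the ramdaq pipeline, with reads of all cells set to a common number. Neither table keeps read depth, so no counting interval of a call or of a TPM value can be given.

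The DNA columns carried sample titles. The RNA headers all named the same embryo and cell, so each was matched to the title that ends in the same number. A further 14 columns in each table carried no label of this series and were not used, and no value is reported for the 4 labelled cells without columns. The transcript table was not used.

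The members and the gene lists were chosen with earlier results of these data known. Bins were placed on GRCm38.p6, genes by GENCODE M21, in which 55141 of the gene IDs were found. A gene belonged to a class when every bin it overlapped did. Genes with TPM above 1 were called detected. Named genes were the 5 with the highest mean TPM for each of 1, 2 and 3 replicated cells (rounded mean over the bins of a gene) and the 6 longest. Named runs were the 8 longest and the longest of each single cell. Among these, 1 gene and 1 run are not reported here. Fold differences of low genes are understated on the log2(TPM + 1) and log10(TPM + 1) scales. SDs are between the cells of an embryo.

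Alternatives covered the cells needed with a state, the range of replicated cells, isolated bins, the definition of late domains, chromosomes 3 and 11, gene type and assignment, detection limit, pseudocount, filter, scaling, RNA protocol and each cell left out. Functions were tested on simulated data. Scripts ran in Python 3.11.15 (pandas 2.3.3, numpy 2.4.6, scipy 1.17.1). Figures were drawn with matplotlib 3.10.9.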

Additional observations from a re-analysis of the deposited data

Results flagged for a closer look

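Over 32 sets of 6 values, 1 per embryo 2 cell, 5 had a cell that stood apart from the other 5 by more than Dixon's 95% critical value for 6 samples. Chance flags about 1 in 20 such sets. In 3 of the 5 the cell was cell 6. Of its replicated calls in members 31.8% were separate from earlier replicated DNA, of the bins it replicated alone 33.4% were joined to earlier DNA, and of its bins replicated in 2 cells 65.7% were joined. The other 2 were RNA levels, 18.7 TPM of Ccdc50 in cell 2 and 22.8 TPM of Pou4f1 in cell 3, both scRR3 cells. The causes were not tested.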

How the results depend on the processing

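Of 115 alternatives over 11 results, 63 were counted as unchanged, 52 moved and 0 reversed in direction. Only the differences in GC content and in RNA level could reverse, as the other results are counts, shares or densities without a direction. For all results but the number of members, unchanged meant within the error of the result. Errors were 95% binomial, order-statistic or Poisson intervals for bins and genes, which are not independent, and the SD between cells for RNA. For genes set against themselves this SD is a spread of cell means and not an error of the difference. The number of members had no such error. All its alternatives, from 5217 to 9968 bins against 7632, were counted as unchanged, so for this result the label says little. With members of 1 or 2 cells only, 19.9% followed the order of the scores and 16.8% were replicated in cell 6. With late domains of at most 4 cells, 2.2% of members were end bins, and with domains of at least 5 bins 9.65%. GC content lay 0.796 points above never-replicated bins as a mean, and all annotated genes started at 9.97 per Mb. Detected member genes were 10.8% at TPM above 0.1, 3.03% above 5 and 8.03% without olfactory, vomeronasal and prolactin genes, an alternative chosen after seeing the data, as were those of RNA protocol and 3 others for the comparison of genes with themselves. The log10 gap to genes replicated in all 6 cells was -1.03 with a pseudocount of 0.1 and -0.248 with 10. The comparison of genes with themselves gave 0.87 with a pseudocount of 0.1, 0.239 with 10, 0.0388 over 529 genes without a filter and 0.194 with each cell centred on the genes used. It was 0.569 in the scRR1 cells 5, 6, 7 and 8, 0.294 over 15 genes in the scRR3 cells 2 and 3, 0.57 with 1 value per run of members and 0.504 with cells centred on genes detected in all 6. The causes were not tested.

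Without each cell in turn, members numbered 8842 to 9968 (1 to 3 of the other 5 cells, a wider class by construction). Over the same 6 settings, 19.8% to 27.4% followed the order, 24.2% to 36.5% were replicated in the least replicated cell, 10.1% to 11.5% were end bins and 10.1% to 12.4% lay on chromosome 3. The GC difference was 0.8 to 1.01 points from never-replicated bins and -5.07 to -4.97 from bins replicated in all 6, with 2.63 to 2.99 coding starts per Mb. More than 1.5 times the value with 6 cells were the order without cells 2, 5 or 8, the share in the least replicated cell without cell 6 (36.5%, then in cell 3) and the GC difference from never-replicated bins without cells 2, 3, 5, 7 or 8. With members kept, detection was 6.05% to 6.39%, the log10 gap -0.598 to -0.58 and the comparison of genes with themselves 0.438 to 0.739. No paired analysis was possible because no result comes from a test between groups. The 6 cells of 1 embryo, 40-kb bins and states without read depth limit all of these values.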

Other observations

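The genes set against themselves were uneven, and those named here were chosen after their values were seen. On the log2(TPM + 1) scale, Ptbp2, a splicing regulator of neurons and germ cells, was 2.23 higher in cells with it replicated, at a mean of 8.22 TPM over the 6 cells. The cell adhesion gene Nectin3 was 1.95 higher at a mean of 3.94 TPM, and Usp25, a deubiquitinase gene, 1.12 higher at 3.13 TPM. Mbd2, whose protein binds methylated DNA, had a difference of -1.39 at a mean of 2.03 TPM. At means this low, 1 cell can set the difference of a gene. Phip at 6.26 TPM and Gm4737 at 11.3 TPM differed by 0.19 and -0.02. The DNA repair genes Fancf and Neil3 had differences of 0.84 and 0.80 at means of 3.27 and 1.72 TPM.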
